A study of Mus musculus with 6 samples.

Results

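The R-spondins and their LGR receptors are 7 of the 26586 genes in the count table of this RNA-seq study of the mouse uterus. The members were taken by gene symbol: the ligands Rspo1, Rspo2, Rspo3 and Rspo4, and the receptors Lgr4, Lgr5 and Lgr6. R-spondins are secreted proteins that bind the leucine-rich repeat receptors LGR4, LGR5 and LGR6 together with the membrane ubiquitin ligases ZNRF3 and RNF43. This binding takes the ligases off the cell surface, so that Frizzled and LRP receptors for Wnt persist there and beta-catenin signalling is strengthened. LGR5 is known as a marker of epithelial stem cells in the intestine and as a Wnt target, and in the mouse uterus it is known from the epithelium and its developing glands.

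Cells were sorted from uteri of 3 mice that carry Axin2rtTA and tetOH2BJGFP, in which the Axin2 promoter drives rtTA and rtTA with doxycycline switches on a nuclear GFP. All the mice had been ovariectomized when 4 weeks old, rested for 2 weeks and given doxycycline, and their uteri were taken 4 days after the doxycycline, at 6 weeks of age. Both fractions were sorted from isolates that the labels call endometrial epithelial cells: the GFP+ cells, labelled Axin2+, and the GFP- cells, labelled Axin2-. Each fraction has 3 libraries, 1 per mouse by its number in the labels, although the labels also speak of pooling the cells of the mice. Had they been pooled, the p-values would reflect spread within 1 pool. Counts of mice below pair the libraries by these numbers, a pairing that the values did not bear out. Where the groups do not overlap, 3 of 3 mice follows from that. The comparison asks which R-spondin and LGR transcripts differ between the fluorescent and the non-fluorescent cells.

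Library totals ran from 49714402 to 59597315 counts, and 16896 genes had enough counts to be tested. The mouse 3 library labelled Axin2- stood apart, with 23.8% of its counts on ribosomal RNA genes, against 14.7% to 16.7% in the other 5, and with 29.3% of read pairs assigned, against 35.0% to 38.9%. Without it the 3 calls among the members were the same, as given beside each. Axin2, the gene whose promoter drives the reporter, had 165, 243 and 299 CPM (counts scaled by depth and TMM factors) in the mouse 1, 2 and 3 libraries labelled Axin2+, against 369, 357 and 356 CPM in those labelled Axin2-. It was thus lower in the fraction sorted as positive in 3 of 3 mice, with a log2 fold change of -0.61 ± 0.21 (SE) that missed the threshold (edgeR adjusted p = 0.0710). It passed by DESeq2 (adjusted p = 0.0338) and, by edgeR, without the mouse 3 library labelled Axin2+ (adjusted p = 0.0290). The transcript goes against the labels, so each direction given here follows the labels of the libraries. All 15 general epithelial markers rose in the libraries labelled Axin2+, with summed levels of 2976 to 4079 CPM, against 247 to 366 CPM in those labelled Axin2-. Epcam, an adhesion protein of epithelia, averaged 227 ± 25.0 CPM in the libraries labelled Axin2+, against 12.4 ± 5.45 CPM in those labelled Axin2- (SD, n = 3 each). All 10 smooth muscle markers and 9 of 11 stromal fibroblast markers fell, the second count being 4 without the mouse 2 library labelled Axin2+. Summed stromal markers stood at 2669 to 4228 CPM in the libraries labelled Axin2+, against 9674 to 21456 CPM in those labelled Axin2-, so the second fraction does not match its epithelial label by these markers. Pericyte markers also fell, 4 of 5. Most markers of macrophages and of endothelium, the lining of vessels, moved with the epithelial ones. Of 9 macrophage markers 8 rose, and their sum was 4003, 2109 and 692 CPM in the mouse 1, 2 and 3 libraries labelled Axin2+, against 272, 66.7 and 364 CPM in those labelled Axin2-. In the mouse 1 library labelled Axin2+ this sum stood beside an epithelial sum of 4079 CPM, and Lyz2, the lysozyme gene of macrophages, had 1579 CPM there. In that of mouse 3 a stromal sum of 4228 CPM stood beside an epithelial sum of 2976 CPM. Sums of different genes are not corrected for length, so they do not rank the cell types. That count of 8 was 4 with the mouse as a block and between 0 and 8 on leaving out 1 library, 0 being without the mouse 1 library labelled Axin2-. Of 10 endothelial markers 7 rose (3 with the mouse as a block, 3 to 7 on leaving out 1 library), with sums of 255 to 467 CPM in the libraries labelled Axin2+, against 200 to 244 CPM in those labelled Axin2-. The endothelial gene Cdh5 went the other way, with a log2 fold change of -0.82 (edgeR adjusted p = 0.0559, DESeq2 adjusted p = 0.0152). Of 7 T and NK cell markers 4 fell (1 to 5 on leaving out 1 library), while their sums overlapped. Cd3e, a T cell gene, had -4.97 (edgeR adjusted p = 0.00733). In such bulk libraries, fewer cells of a type and less RNA per cell cannot be told apart.

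Of the 7 members, 5 had enough counts to be tested, and 3 of these differed between the fractions. Lgr5 and Lgr4 were higher in the libraries labelled Axin2+, Rspo3 was lower, and Rspo1 and Lgr6 did not pass. Over the whole table edgeR called 14.5% of the tested genes higher and 12.8% lower at an adjusted p under 0.05, so that a call in either direction was frequent, and the median log2 fold change was -0.01. The share of all tested genes whose groups do not overlap is not given here. Under random labels 3 against 3 libraries separate fully with a probability of 0.1, so a lack of overlap alone sets no member apart. Rspo2 and Rspo4 had between 0 and 12 reads per library and were not tested.

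**Figure D1:**
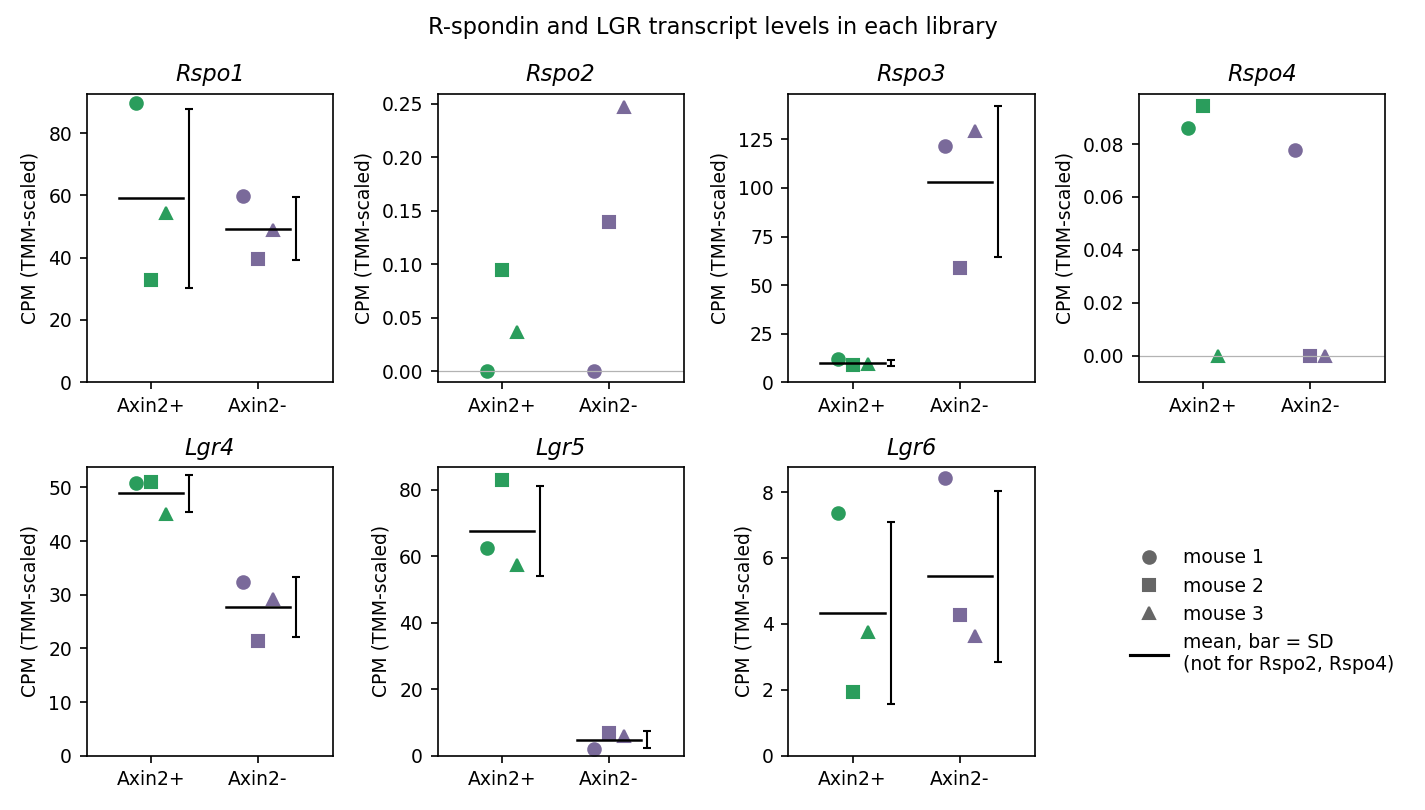
Level of each R-spondin and LGR gene in CPM (vertical axis, linear, a scale of its own per panel) in the 3 libraries labelled Axin2+ and the 3 labelled Axin2- (horizontal axis). Points are libraries with a symbol per mouse, lines are means and bars are SD, both left out for Rspo2 and Rspo4. Groups do not overlap for Rspo3, Lgr4 and Lgr5, and overlap for the others. The share of all genes without overlap is not given here.

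The members lie on 5 chromosomes (GRCm38, that is mm10, positions from GENCODE M21). Rspo1 (ENSMUSG00000028871) lies at chr4:124986430-125009099 on the plus strand and Rspo4 (ENSMUSG00000032852) at chr2:151842927-151874668 on the plus strand. Rspo2 (ENSMUSG00000051920) lies at chr15:43020794-43170826 and Rspo3 (ENSMUSG00000019880) at chr10:29452416-29535867, both on the minus strand. Lgr4 (ENSMUSG00000050199) lies at chr2:109917647-110014257 on the plus strand, and Lgr5 (ENSMUSG00000020140) at chr10:115450311-115587780 and Lgr6 (ENSMUSG00000042793) at chr1:134983301-135105276 on the minus strand. All 7 are protein-coding. Rspo3 shares 404 exon bases with the antisense gene Gm48159, and without a stated strand setting reads there cannot be told apart between the 2 genes. Lgr5, Rspo1 and Rspo4 lie over other annotated genes (A930009A15Rik, Gm12930 and Rspo4os) with which they share 0 exon bases.

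The bases just before the start sites are shown for a member that rose and for the tested members that did not pass, beside that of Sp5, a transcription factor gene and known Wnt target that rose here. RefSeq sequences of GRCm38.p6 were used, 250 bases before each start, written 5′ to 3′ on the strand of the gene. Capitals mark CCAAT and the TCF/LEF motif CTTTGAT, searched on both strands. The windows are chr2:109917397-109917646 (plus) for Lgr4, chr4:124986180-124986429 (plus) for Rspo1, chr1:135105277-135105526 (minus) for Lgr6 and chr2:70474673-70474922 (plus) for Sp5.
Lgr4: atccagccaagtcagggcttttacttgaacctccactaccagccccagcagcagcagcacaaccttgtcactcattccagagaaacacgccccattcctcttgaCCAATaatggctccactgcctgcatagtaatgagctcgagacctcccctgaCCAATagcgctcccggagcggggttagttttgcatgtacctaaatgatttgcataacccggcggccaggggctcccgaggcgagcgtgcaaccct
Rspo1: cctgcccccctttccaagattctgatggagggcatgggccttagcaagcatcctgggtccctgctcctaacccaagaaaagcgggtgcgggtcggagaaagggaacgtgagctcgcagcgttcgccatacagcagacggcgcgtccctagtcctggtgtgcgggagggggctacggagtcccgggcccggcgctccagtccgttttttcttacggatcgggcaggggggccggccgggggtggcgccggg
Lgr6: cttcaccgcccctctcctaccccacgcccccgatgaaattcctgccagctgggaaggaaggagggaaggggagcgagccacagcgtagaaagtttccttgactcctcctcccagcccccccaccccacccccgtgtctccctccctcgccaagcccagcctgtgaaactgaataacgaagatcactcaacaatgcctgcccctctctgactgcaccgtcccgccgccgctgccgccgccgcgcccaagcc
Sp5: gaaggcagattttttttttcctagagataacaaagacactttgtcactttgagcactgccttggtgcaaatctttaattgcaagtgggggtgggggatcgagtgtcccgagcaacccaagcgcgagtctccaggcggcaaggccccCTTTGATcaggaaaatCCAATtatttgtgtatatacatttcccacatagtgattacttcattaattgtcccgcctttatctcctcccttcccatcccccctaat
Lgr4 held 2 copies of CCAAT, a common promoter element that 33.8% of 32851 such windows hold. Sp5 held 1 copy of CCAAT and 1 TCF/LEF motif, which starts at -104 from the start site. The motif CTTTGAA or CTTTGAT is in 7.48% of the windows, and these letters are in none of the windows of Lgr4, Rspo1 and Lgr6. The FOXA motif TGTTTAC or TGTTTGC, which 7.29% of windows hold, and TATAAA, which 12.4% hold, are in none of these 4 windows. No motif overlapped another in them. Sp5 does not stand for Wnt targets as a set. Windows of Axin2, Nkd1, Nkd2, Lef1, Tcf7, Ascl2, Cd44, Wif1, Ephb2 and Ephb3, other known targets, held no TCF/LEF motif. Dkk1 and a window of Tnfrsf19 held it, and another window of Tnfrsf19 did not. No windows were available for Lgr5, Rspo2 and Rspo3. The motifs were chosen with the expression values known, and a match describes the letters only.

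Among the ligands, Rspo3, which acts from mesenchymal cells in several tissues, was much lower in the libraries labelled Axin2+. Rspo3 had 11.8, 8.61 and 9.29 CPM in the mouse 1, 2 and 3 libraries labelled Axin2+, against 122, 58.6 and 129 CPM in those labelled Axin2-. The groups did not overlap, and the lowest library labelled Axin2-, that of mouse 2, lay far above all 3 labelled Axin2+. Means were 9.90 ± 1.69 CPM in the libraries labelled Axin2+, against 103 ± 38.8 CPM in those labelled Axin2- (SD, n = 3 each). This was a log2 fold change of -3.38 ± 0.33 (SE), or 10.4-fold lower (edgeR adjusted p = 0.000749). Rspo3 passed in all 15 alternative settings, including that without the mouse 3 library labelled Axin2- (-3.17, edgeR adjusted p = 0.00482), where the log2 fold change ranged from -3.66 to -3.17. The authors' deposited table, made from the same counts, gives it a log2 fold change of -3.39 with an FDR of 0.000746.

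Stromal, smooth muscle and pericyte transcripts moved with Rspo3. Summed smooth muscle markers stood at 286, 345 and 461 CPM in the mouse 1, 2 and 3 libraries labelled Axin2+, against 6878, 2558 and 5425 CPM in those labelled Axin2-. The summed stromal markers were at 3078, 2669 and 4228 CPM in the libraries labelled Axin2+, against 21456, 9674 and 17810 CPM in those labelled Axin2-. Among the libraries labelled Axin2-, that of mouse 2 was the lowest for Rspo3 and for both marker sums. The order differed among the libraries labelled Axin2+. There Rspo3 was highest in mouse 1, where the smooth muscle and pericyte sums were lowest. As a ratio to the summed stromal markers, Rspo3 was 0.00384, 0.00323 and 0.00220 in the libraries labelled Axin2+, against 0.00567, 0.00606 and 0.00726 in those labelled Axin2-. The ratio was lower in 3 of 3 mice and the groups did not overlap, a difference of -1.07 on the log2 scale. The two-sided exact permutation p was 0.1, the lowest that 3 against 3 libraries permit (0.133 after Benjamini-Hochberg adjustment over 8 planned ratios). Ratios to the other lists, added after the values were seen, gave another picture. Against the summed smooth muscle markers the ratio was 0.0414, 0.025 and 0.0202 in the libraries labelled Axin2+, against 0.0177, 0.0229 and 0.0238 in those labelled Axin2-, and the groups overlapped (log2 difference 0.37, exact permutation p = 0.4). Against the summed pericyte markers it was 0.283, 0.0783 and 0.0713 in the libraries labelled Axin2+, against 0.323, 0.198 and 0.261 in those labelled Axin2-. It was lower in 3 of 3 mice with overlap (log2 difference -1.13, exact permutation p = 0.3), and the difference was -0.047 with the median of the markers. Rspo3 thus fell further than the stromal sum but not further than the smooth muscle sum in these libraries, and the part of these cells in its level was not tested.

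Rspo1, the ligand best known from ovary determination, was abundant in both fractions and did not differ beyond the spread between mice. It stood at 89.8, 32.9 and 54.5 CPM in the mouse 1, 2 and 3 libraries labelled Axin2+, against 59.7, 39.5 and 48.8 CPM in those labelled Axin2-. The groups overlapped, and in both fractions mouse 1 was highest, mouse 3 intermediate and mouse 2 lowest. The log2 fold change was 0.26 ± 0.35 (SE) and did not pass (edgeR adjusted p = 0.620). It was -0.17 without the mouse 1 library labelled Axin2+, so its direction rested on that library. With the mouse as a block it was 0.16 ± 0.19 (edgeR adjusted p = 0.574).

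Markers of the mesothelium, the outer lining of the uterus, showed the same order of mice in the libraries labelled Axin2+. Their summed level was 578, 194 and 313 CPM in the mouse 1, 2 and 3 libraries labelled Axin2+, against 233, 182 and 195 CPM in those labelled Axin2-. Between the highest and the lowest library labelled Axin2+, Rspo1 differed 2.73-fold and the mesothelial sum 2.98-fold. Of the 7 mesothelial markers 5 rose and 1, the transcription factor gene Wt1, fell. The ratio of Rspo1 to the sum was 0.155 to 0.174 in the libraries labelled Axin2+, against 0.217 to 0.256 in those labelled Axin2-, a log2 difference of -0.53 with no overlap (exact permutation p = 0.1, adjusted 0.133). Without Wt1, which made up most of the sum in the libraries labelled Axin2-, the difference was -2.40, an alternative added after the values were seen. Rspo1 set against stromal markers moved the other way, by 2.41 on the log2 scale (exact permutation p = 0.1, adjusted 0.133), with no overlap and a higher ratio in 3 of 3 mice. The part of mesothelial cells in the level of Rspo1 was not tested.

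Rspo2 and Rspo4, the other ligands, were near the limit of detection. Rspo2 had 0, 5 and 2 reads in the mouse 1, 2 and 3 libraries labelled Axin2+, against 0, 8 and 12 reads in those labelled Axin2-. Rspo4 had 5, 5 and 0 reads in the libraries labelled Axin2+, against 4, 0 and 0 reads in those labelled Axin2-. At this depth a floor of 3 counts is a level of 0.0518 to 0.0618 CPM. The exact two-sided 95% Poisson interval at 0 reads had upper ends of 0.0636 to 0.0760 CPM. Such limits and the intervals below reflect counting error alone, and the reads carry no molecular identifiers. The groups overlapped for both genes, and exact two-sided permutation tests of the levels gave p = 0.4 for each. With no filter on low counts edgeR gave adjusted p = 0.583 for Rspo2 and 0.707 for Rspo4. A difference between fractions was thus not detectable for these ligands at this depth.

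Among the receptors, Lgr5 differed most. It stood at 62.4, 82.8 and 57.4 CPM in the mouse 1, 2 and 3 libraries labelled Axin2+, against 1.96, 6.68 and 5.87 CPM in those labelled Axin2-. All libraries labelled Axin2+ lay far above all labelled Axin2-. Means were 67.5 ± 13.4 CPM in the libraries labelled Axin2+, against 4.84 ± 2.52 CPM in those labelled Axin2- (SD, n = 3 each), a log2 fold change of 3.80 ± 0.46 (SE), or 13.9-fold higher (edgeR adjusted p = 0.00159). Lgr5 passed in all 15 alternative settings, including that without the mouse 3 library labelled Axin2- (3.98, edgeR adjusted p = 0.0101), with log2 fold changes from 3.45 to 4.11. The authors' deposited table gives it a log2 fold change of 3.79 with an FDR of 0.00153.

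The libraries labelled Axin2- still held Lgr5 reads, 101, 382 and 285 in mice 1, 2 and 3. The exact 95% Poisson interval of the level was 1.60 to 2.39 CPM in mouse 1 and 6.02 to 7.38 CPM in mouse 2. Summed epithelial markers, like Lgr5, were lowest in the mouse 1 library labelled Axin2-, at 247 CPM, against 366 and 354 CPM in those of mice 2 and 3.

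Set against the epithelial markers of its own library, Lgr5 showed no difference between fractions that the test could separate from the spread. The ratio to the sum of 15 general epithelial markers was 0.0153, 0.0235 and 0.0193 in the mouse 1, 2 and 3 libraries labelled Axin2+, against 0.00795, 0.0182 and 0.0166 in those labelled Axin2-. This ratio was higher for Axin2+ than for Axin2- in 3 of 3 mice (exact sign-flip p = 0.25, the smallest 3 mice can give), but the groups overlapped. The log2 difference of 0.51 had an exact permutation p of 0.4 (adjusted 0.457), and was 0.13 to 0.73 on leaving out 1 library. With the median of the markers in place of their sum the difference was -0.16. Against the summed gland markers the ratio was 0.306, 0.403 and 0.193 in the libraries labelled Axin2+, against 0.0676, 0.308 and 0.353 in those labelled Axin2-. This log2 difference of 0.56 (exact permutation p = 0.7, adjusted 0.7) was -0.20 without the mouse 1 library labelled Axin2-. With the median of the gland markers it was -1.06. Only 5 of the 8 gland markers had enough counts to be tested. Their median lay near the floor in the libraries labelled Axin2-, so this value is not a firm one. Aldh1a1 made up most of the gland sum in each library. Both signs thus turned with the median, and the second without 1 library as well. With 3 libraries per fraction the values do not show that Lgr5 and these markers moved alike. The part of epithelial cells in the level of Lgr5 was not tested beyond these ratios.

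Lgr4, the most widely expressed of the receptors, was also higher in the libraries labelled Axin2+, by a smaller factor. Lgr4 had 50.7, 50.9 and 45.0 CPM in the mouse 1, 2 and 3 libraries labelled Axin2+, against 32.4, 21.4 and 29.1 CPM in those labelled Axin2-. The groups did not overlap, and the level was higher in 3 of 3 mice. Means were 48.9 ± 3.39 CPM in the libraries labelled Axin2+, against 27.7 ± 5.62 CPM in those labelled Axin2- (SD, n = 3 each). The log2 fold change was 0.82 ± 0.18 (SE), or 1.77-fold (edgeR adjusted p = 0.0141), and the authors' deposited table gives 0.81 with an FDR of 0.0145. Without the mouse 2 library labelled Axin2+ the log2 fold change was 0.79 and Lgr4 no longer passed (edgeR adjusted p = 0.0565). It passed in the other 14 settings, with log2 fold changes from 0.67 to 0.99, and with 0.88 (edgeR adjusted p = 0.0410) without the mouse 3 library labelled Axin2-. Most endothelial and macrophage markers, like the epithelial ones, were higher beside Lgr4 and Lgr5 in the libraries labelled Axin2+, and the part of those cells in either level was not tested.

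Lgr6, known from stem cells of the skin, was low in both fractions. It stood at 7.35, 1.93 and 3.74 CPM in the mouse 1, 2 and 3 libraries labelled Axin2+, against 8.42, 4.26 and 3.64 CPM in those labelled Axin2-. The groups overlapped, and mouse 1 gave the highest library of each fraction. Its log2 fold change was -0.33 ± 0.55 (SE), which did not pass (edgeR adjusted p = 0.695). It turned to 0.031 without the mouse 2 library labelled Axin2+ and to 0.16 without the mouse 1 library labelled Axin2-. Lgr6 did not follow the epithelial markers, since its ratio to their sum was lower for Axin2+ than for Axin2- in 3 of 3 mice. The groups of that ratio did not overlap (log2 difference -3.90, exact permutation p = 0.1, adjusted 0.133), and the ratio to the gland markers gave -3.84 with the same p.

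Levels of different genes were compared per length, as CPM per kilobase of exons. For the libraries labelled Axin2+ the order was Rspo1 at 30.5 ± 14.8, Lgr4 at 8.31 ± 0.577, Lgr5 at 6.58 ± 1.31, Rspo3 at 3.21 ± 0.547 and Lgr6 at 0.633 ± 0.403 CPM per kilobase (SD, n = 3 each). In those labelled Axin2- the order was Rspo3 at 33.4 ± 12.6, Rspo1 at 25.4 ± 5.21, Lgr4 at 4.70 ± 0.955, Lgr6 at 0.794 ± 0.379 and Lgr5 at 0.471 ± 0.246 CPM per kilobase. Rspo2 and Rspo4 came last in both, at no more than 0.0254 CPM per kilobase on average. Neighbours whose ranges overlapped were Lgr4 and Lgr5 in the libraries labelled Axin2+, Rspo3 and Rspo1, and Lgr6 and Lgr5, in those labelled Axin2-, and Rspo2 and Rspo4 in both. Both orders involving Lgr5 depend on the length used: all annotated Lgr5 exons cover 10264 bases, its longest transcript 4793. With the longest transcript Lgr5 was at 14.1 ± 2.80, above Lgr4 at 9.66 ± 0.670 CPM per kilobase, in the libraries labelled Axin2+. In those labelled Axin2- it was then at 1.01 ± 0.526, above Lgr6 at 0.815 ± 0.389 CPM per kilobase.

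The make-up of the ligand pool differed between fractions. Rspo1 made up 92.3%, 85.6% and 90.3% of the summed R-spondin level per length in the mouse 1, 2 and 3 libraries labelled Axin2+, against 43.9%, 51.8% and 37.5% in those labelled Axin2-. Rspo3 made up nearly all of the rest. The ratio of Rspo1 to Rspo3 in CPM was 7.60, 3.82 and 5.86 in the libraries labelled Axin2+, against 0.490, 0.674 and 0.377 in those labelled Axin2-. The groups did not overlap, with a log2 difference of 3.47 (exact permutation p = 0.1, the smallest possible). This ratio was added after the values were seen. The summed ligand level per length overlapped between fractions, at 19.8 to 50.2 CPM per kilobase in the libraries labelled Axin2+, against 39.4 to 70.2 CPM per kilobase in those labelled Axin2-.

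The receptor pool differed as well, with shares that depend on the length used. Lgr5 made up 38.5%, 47.4% and 40.6% of the summed LGR level per length in the mouse 1, 2 and 3 libraries labelled Axin2+, against 2.76%, 13.2% and 9.45% in those labelled Axin2-. Lgr4 made up 54.7%, 50.9% and 55.5% in the libraries labelled Axin2+, against 79.5%, 74.1% and 81.8% in those labelled Axin2-. Over the longest transcript Lgr5 made up 53.9%, 62.5% and 55.9% in the libraries labelled Axin2+, against 5.08%, 22.2% and 16.3% in those labelled Axin2-. Lgr4 then made up 41.5%, 36.4% and 41.5% in the libraries labelled Axin2+, against 79.3%, 67.6% and 76.5% in those labelled Axin2-. By either length the Lgr5 share was higher in all libraries labelled Axin2+ than in any labelled Axin2-, while which receptor led in the libraries labelled Axin2+ changed with the length. The ratio of Lgr4 to Lgr5 in CPM was 0.814, 0.616 and 0.783 in the libraries labelled Axin2+, against 16.5, 3.21 and 4.96 in those labelled Axin2-. The groups did not overlap, with a log2 difference of -3.13 (exact permutation p = 0.1, adjusted 0.133). The summed receptor level per length did not overlap either, at 13.8 to 17.0 CPM per kilobase in the libraries labelled Axin2+, against 4.92 to 6.93 CPM per kilobase in those labelled Axin2-.

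**Figure D2:**
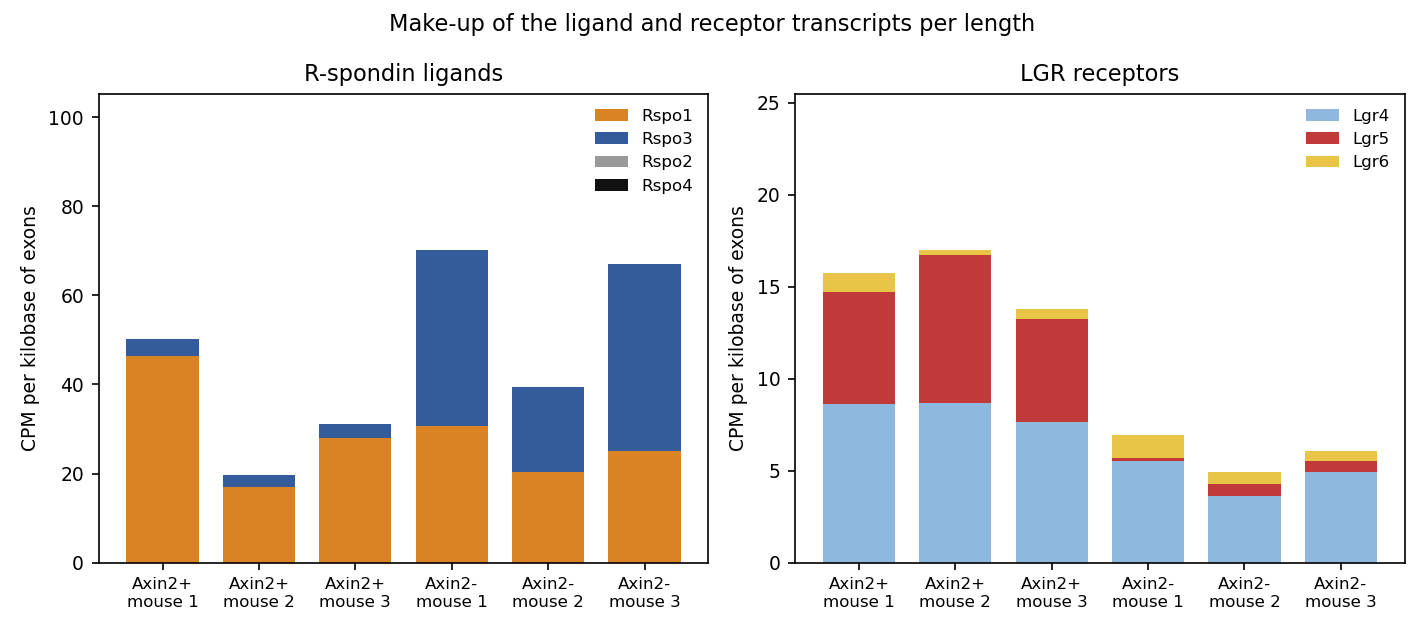
Stacked level per length (CPM per kilobase of exons, vertical axis) of the R-spondins (left) and LGR receptors (right) in each library. Rspo1 fills at least 85.6% of the ligand bar in the libraries labelled Axin2+ and at most 51.8% in those labelled Axin2-, while Lgr5 fills at least 38.5% of the receptor bar in the libraries labelled Axin2+ and at most 13.2% in those labelled Axin2-, where the length is that of all annotated exons.

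**Figure D3:**
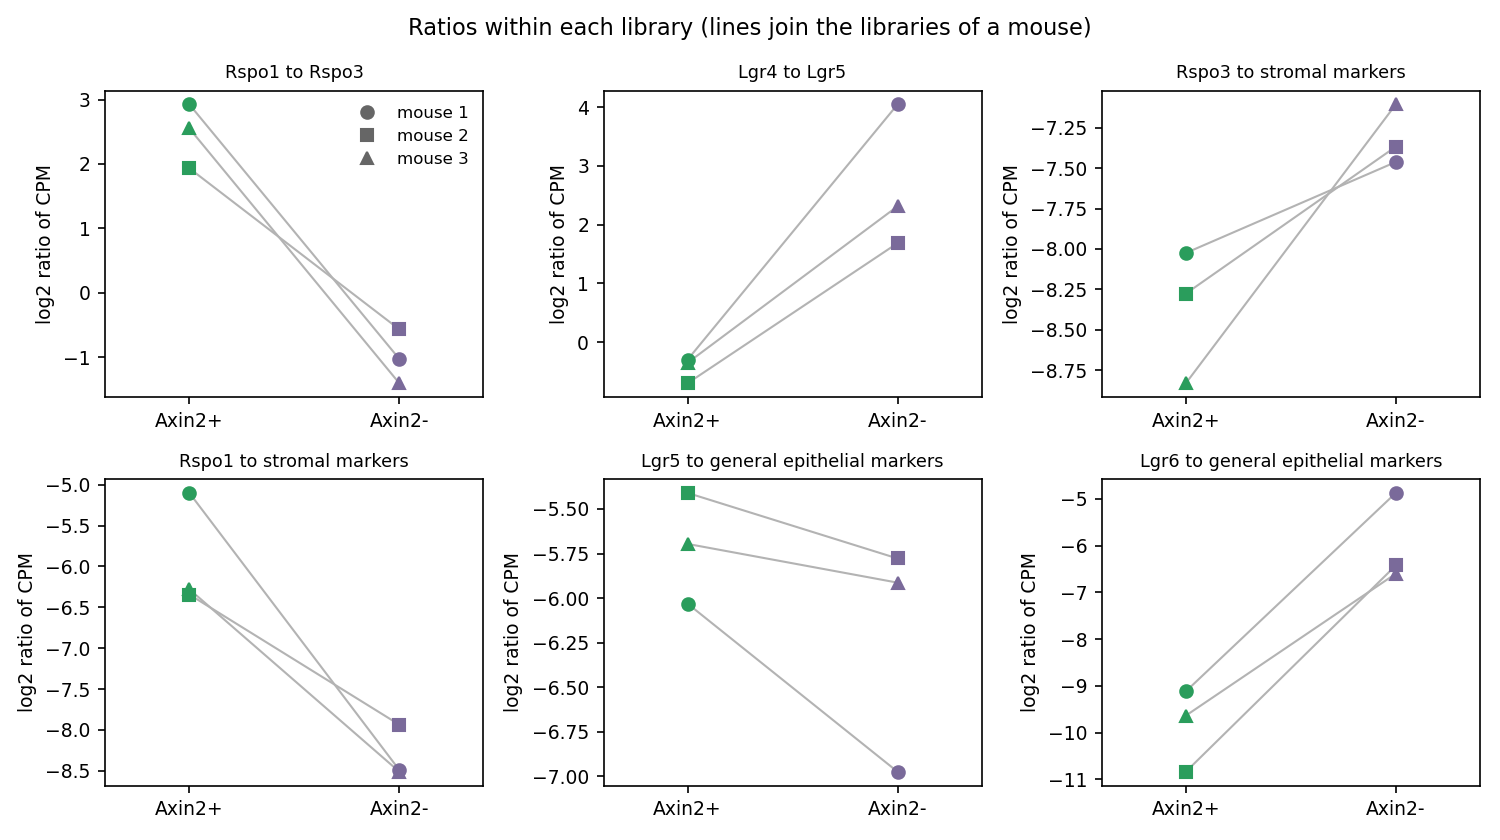
Log2 of ratios of CPM within each library (vertical axis, a scale of its own per panel), for libraries labelled Axin2+ and Axin2- (horizontal axis), with lines joining the libraries of a mouse. The groups overlap for Lgr5 to general epithelial markers, and do not overlap in the other 5 panels.

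The ligases that R-spondins take off the surface are ZNRF3 and RNF43, which mark Frizzled receptors for removal. Of the 5 listed genes of receptor turnover 2 rose, both ligases, and 0 fell, and the list's median log2 fold change was -0.16. Rnf43 stood at 119.9, 99.7 and 108 CPM in the mouse 1, 2 and 3 libraries labelled Axin2+, against 7.58, 9.09 and 12.7 CPM in those labelled Axin2-. The groups were far apart, and the log2 fold change was 3.48 ± 0.22 (SE), or 11.2-fold (edgeR adjusted p = 0.000239). Znrf3 averaged 81.7 ± 3.30 CPM in the libraries labelled Axin2+, against 52.7 ± 7.50 CPM in those labelled Axin2- (SD, n = 3 each), a log2 fold change of 0.63 (edgeR adjusted p = 0.0131). It did not overlap between fractions, and no longer passed without the mouse 2 library labelled Axin2+ (edgeR adjusted p = 0.0554). The adaptors Dvl1, Dvl2 and Dvl3, which the ligases act with, had log2 fold changes of -0.17, -0.28 and -0.16 and did not pass.

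Of the Wnt receptors and co-receptors, 11 of 12 were tested, 3 rose and 4 fell, with a median of 0.21. Fzd10, a Frizzled receptor, averaged 87.7 ± 23.4 CPM in the libraries labelled Axin2+, against 6.52 ± 2.88 CPM in those labelled Axin2-, a log2 fold change of 3.75 (edgeR adjusted p = 0.00106). Fzd6 rose by 2.71 and Fzd7 fell by 1.58 on the log2 scale (edgeR adjusted p = 0.000239 and 0.000319). Frizzled genes thus moved in both directions, since Fzd1 and Fzd2 fell by 1.12 and 1.11 (edgeR adjusted p = 0.0158 and 0.0469). Fzd2 rested on the setting, and did not pass in 8 of 15 alternatives, among them the mouse as a block (edgeR adjusted p = 0.0520). The co-receptors moved apart: Lrp5 averaged 130.0 ± 15.2 CPM in the libraries labelled Axin2+, against 63.4 ± 6.74 CPM in those labelled Axin2-, a log2 fold change of 1.04 (edgeR adjusted p = 0.00209). Lrp6 averaged 231 ± 24.0 CPM in the libraries labelled Axin2+, against 359 ± 20.6 CPM in those labelled Axin2-, a log2 fold change of -0.64 (edgeR adjusted p = 0.0117). Lrp6 did not pass without the mouse 2 library labelled Axin2+ (edgeR adjusted p = 0.0615). Fzd3, Fzd4, Fzd5 and Fzd8 did not pass, with log2 fold changes from 0.098 to 0.47, and Fzd3 passed without the mouse 1 library labelled Axin2+ (edgeR adjusted p = 0.0390).

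Other proteins reported to bind R-spondins or LGRs were listed too, and of 5 tested out of 6 listed 2 rose and 0 fell, with a median of -0.40. Sdc4, the heparan sulfate proteoglycan syndecan 4, averaged 442 ± 57.8 CPM in the libraries labelled Axin2+, against 127 ± 11.4 CPM in those labelled Axin2-, a log2 fold change of 1.80 (edgeR adjusted p = 0.000424). Iqgap1, a scaffold protein that LGR4 binds, rose by 0.76 on the log2 scale (edgeR adjusted p = 0.0299). Its call was lost on leaving out the Axin2+ library of mouse 1 or mouse 2, or the Axin2- library of mouse 2 or mouse 3, with adjusted p of 0.0661, 0.0978, 0.0742 and 0.0904. Bmpr1a, the BMP receptor that R-spondins can bind, had a log2 fold change of -0.40 and an edgeR adjusted p of 0.0535, which fell under 0.05 in 5 of 15 settings. Ndp, the ligand norrin, had -1.41 (edgeR adjusted p = 0.0653, and 0.0497 with the mouse as a block), and Gpc3, the proteoglycan glypican 3, had -0.94 (edgeR adjusted p = 0.0726). Without the mouse 3 library labelled Axin2+ Ndp passed (-1.93, edgeR adjusted p = 0.0246), as did Gpc3 without that of mouse 1 (-1.17, edgeR adjusted p = 0.0491). Tnfsf11, the ligand RANKL, had 2, 0 and 2 reads in the mouse 1, 2 and 3 libraries labelled Axin2+, against 33, 18 and 7 reads in those labelled Axin2-, and was not tested by edgeR after the filter. With no filter it had an edgeR adjusted p of 0.0819. By DESeq2, 4 of the 6 were lower: Bmpr1a, Ndp, Gpc3 and Tnfsf11 (adjusted p = 0.0464, 0.00913, 0.0217 and 0.0178).

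The other leucine-rich repeat receptors of the wider LGR family bind glycoprotein hormones or relaxin-like peptides. Fshr and Lhcgr, the gonadotropin receptors, had 0 reads in all 6 libraries. Tshr, the thyrotropin receptor, averaged 8.25 ± 1.97 CPM in the libraries labelled Axin2+, against 2.31 ± 0.483 CPM in those labelled Axin2- (SD, n = 3 each), a log2 fold change of 1.83 (edgeR adjusted p = 0.00596). Rxfp1, the relaxin receptor, did not pass (log2 fold change -0.56, edgeR adjusted p = 0.530). Rxfp2, the receptor for insulin-like peptide 3, fell by 1.94 on the log2 scale (edgeR adjusted p = 0.0289). It did not pass with the mouse as a block (edgeR adjusted p = 0.0716), nor on leaving out any library but the mouse 3 library labelled Axin2-, when adjusted p reached up to 0.110. Of the 3 tested, 1 rose and 1 fell, with a median of -0.56.

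**Figure D4:**
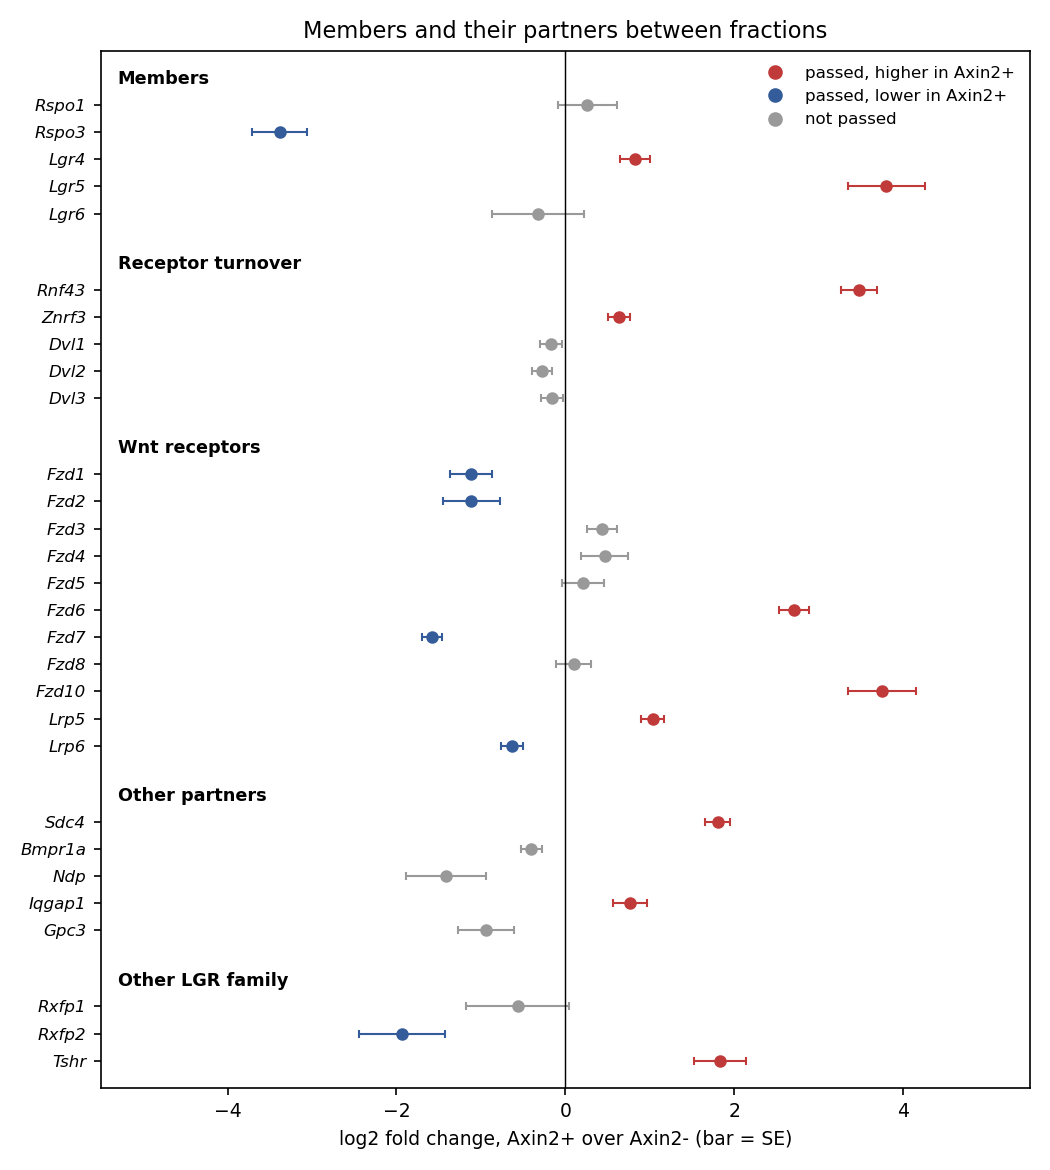
Log2 fold change, libraries labelled Axin2+ over those labelled Axin2- (horizontal axis, bar = SE), of the tested members and of the listed turnover genes, Wnt receptors, other partners and other leucine-rich repeat receptors. Red points passed as higher and blue as lower in edgeR at an adjusted p under 0.05, and grey points did not pass. Lgr5, Rnf43 and Fzd10 lie furthest to the right and Rspo3 furthest to the left.

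Targets of beta-catenin, the pathway that R-spondins strengthen, moved in both directions. Of 19 listed, 17 were tested, 6 rose and 3 fell, with a median of 0.35. Those that rose were Sp5, Tnfrsf19, Ccnd1, Wif1, Ephb3 and Sox9. Sp5 averaged 10.1 ± 2.90 CPM in the libraries labelled Axin2+, against 0.373 ± 0.232 CPM in those labelled Axin2- (SD, n = 3 each), a log2 fold change of 4.75 (edgeR adjusted p = 0.00105). Sox9, a transcription factor of epithelial progenitors, averaged 32.7 ± 3.88 CPM in the libraries labelled Axin2+, against 4.04 ± 1.85 CPM in those labelled Axin2-. Those that fell were the feedback inhibitor genes Nkd1 and Nkd2 and the transcription factor gene Myc, by 1.27, 1.06 and 1.28 on the log2 scale (edgeR adjusted p = 0.0104, 0.0428 and 0.00280). Nkd2 did not pass with the mouse as a block (edgeR adjusted p = 0.0745), nor without the mouse 2 library labelled Axin2+ (0.112) or without any one of the 3 labelled Axin2- (0.0696 to 0.128). Tnfrsf19, a receptor of the TNF family, rose by 0.67 (edgeR adjusted p = 0.0308). Its call was lost without the Axin2+ library of mouse 2 or mouse 3, and without the Axin2- library of mouse 1 or mouse 2 (edgeR adjusted p = 0.0653 to 0.0991). Cd44, an adhesion receptor, passed only without the mouse 1 library labelled Axin2- (log2 fold change 1.01 against 0.35 with all libraries, edgeR adjusted p = 0.0171).

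The genes whose level was most like that of each member were taken by Pearson's r of log2 CPM over the 6 libraries, among 11071 genes with a mean of at least 5 CPM. Since the libraries form 2 fractions, a gene that differs between them has many neighbours, and r is given as a description over libraries that share mice and depth. Lgr5 was most like Rasef (r = 0.999), Dlx6, Ctnnal1, Gcnt3 and Fzd10, and 671 genes had r above 0.95. Lgr4 was most like Cadps2 (r = 0.998), Agrn, Kdr and Rtn4ip1, with 332 such genes. Rspo3 was most like Erf (r = 0.999), Lgi4, Uaca, Rad18 and the smooth muscle actin gene Actg2, with 395 such genes. The tested members that did not pass had few neighbours. Rspo1 was most like the prolactin receptor gene Prlr (r = 0.980), Yrdc, Sephs2, Star and Fmod, with 4 genes above 0.95. Lgr6 was most like Clcn4-2 (r = 0.982), Cdr2, Prr14, Flrt2 and Slc35e4, with 7 such genes.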

How the data were processed

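Total RNA without ribosomal RNA (Ribo-Zero Gold, per the labels) was sequenced from 2 sorted fractions, 3 libraries each. Whole-number counts per gene were deposited, and the submitters' processing notes name STAR 2.5.3a, featureCounts 1.5.3, edgeR 3.22.5 and mm10. Annotation version and strand setting: not given in the sources used here. The authors' deposited comparison table lists 5 members with log2 values (fold change and CPM), an F statistic taken as a score, and p-values with FDR. Over 15469 genes its log2 fold changes equalled those of the edgeR fit with the filter above 0.5 CPM, an alternative used here. It is thus not a separate test. By the deposited mapping summary, 29.3 percent of read pairs of the mouse 3 library labelled Axin2- and 35.0 to 38.9 percent of the others were assigned to 1 feature.

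Genes were tested with edgeR 4.0.16 under R 4.3.3 (filterByExpr, TMM, robust quasi-likelihood F test, Benjamini-Hochberg over 16896 genes, threshold 0.05). The fit was tried on simulated data with far fewer changed genes than were called here. It recovered 18 percent of 2-fold and 67 percent of 4-fold changes, with 6 false calls among 91. These rates may not hold for the present data, and a gene that did not pass may still differ. SE is the log2 fold change over the root of F. Alternatives were other scalings and filters, DESeq2 1.42.0, the mouse as a block and leaving out each library. Ratios within libraries were tested by exact permutation, two-sided. Ribosomal RNA genes took 23.8 percent of counts in that library and 14.7 to 16.7 percent in the others. Within a fraction no 2 libraries agreed within sampling noise (chi-square per degree of freedom at least 62.2). Pairing by mouse was taken from the labels, and deviations from the fraction means correlated at 0.27, 0.01 and -0.07 for mice 1, 2 and 3. Between libraries of different mice they correlated at -0.24 to 0.25, so these values do not bear out the pairing. The members, the 5 partner lists, the 10 marker lists (134 genes, 132 found as listed and 2 under an older symbol), the tests and the naming rule were chosen with earlier results of these data known. The rule names all members, Axin2, any gene of the partner lists, a defining marker per cell type and, per tested member, the 5 genes with the most similar levels, of which 1 is not reported here. Actg2 and Kdr, named by it, are also markers. Wt1, Cdh5, Cd4 and Aldh1a1 were named after their values were seen.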

Additional observations from a re-analysis of the deposited data

How the results depend on the processing

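Over 15 alternatives, Lgr5 and Rspo3 kept their direction and their side of the threshold, with log2 fold changes of 3.45 to 4.11 and -3.66 to -3.17. Library-size scaling moved the median of all genes to 0.16 and turned no member. With the mouse as a replicate block, log2 fold changes were 3.94 for Lgr5, 0.84 for Lgr4, -3.31 for Rspo3, 0.16 for Rspo1 and -0.43 for Lgr6, which changed no member's call. Under the block 1 other partner fell (Ndp) and 0 other leucine-rich repeat receptors did, against 0 and 1 without it. Leaving out 1 library gave log2 fold changes of 0.67 to 0.98 for Lgr4 (0.79, not passed, without the mouse 2 library labelled Axin2+), -0.94 to 0.16 for Lgr6 and -0.17 to 0.55 for Rspo1. It gave 1 to 2 members higher, 1 to 2 turnover genes higher, 2 to 4 Wnt receptors lower, 1 to 2 other partners higher and 0 to 1 lower, and 0 to 1 other leucine-rich repeat receptors lower. Of all genes tested, between 1491 and 2304 were then higher and between 1053 and 1911 lower, against 2447 and 2171 with all libraries. The lowest counts came without the mouse 2 library labelled Axin2+. For other partners, 1 fell with RLE factors, upper quartile scaling or either CPM filter (Bmpr1a), and 4 in DESeq2 (Bmpr1a, Ndp, Gpc3 and Tnfsf11). DESeq2 called 6 beta-catenin targets lower and 7 higher, against 3 and 6 in edgeR. Ascl2 was the target gained as higher (DESeq2 adjusted p = 0.0149, edgeR adjusted p = 0.0626). With the median of the markers in place of their sum, log2 ratio differences were -2.41 for Rspo1 to mesothelial (-2.40 for the sum without Wt1), -0.16 for Lgr5 to epithelial, -1.06 for Lgr5 to gland, -0.047 for Rspo3 to pericyte and -5.46 for Lgr6 to gland markers. The gland values rest on a median near the floor in the libraries labelled Axin2-. Leaving out 1 library gave -0.20 to 0.99 for Lgr5 to gland markers. Over the longest transcript, Lgr4 was at 9.66 and Lgr5 at 14.1 CPM per kilobase in the libraries labelled Axin2+, and Lgr5 at 1.01 CPM per kilobase in those labelled Axin2-, since these genes have shorter longest transcripts than summed exons. The cause of the other shifts was not tested. Depth limits Rspo2 and Rspo4, with at most 12 reads in a library.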
